A study of Mus musculus with 6 samples.

Results

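The genes described are 10 little-studied genes with much more signal in RNA pulled down with the ribosomes of serotonin neurons than in the RNA left behind: Wfdc12, 1700042O10Rik, Cited1, Klk1b27, Cryba2, Stmnd1, Ctxn1, Ctla2a, 1110038B12Rik and 1110008P14Rik. They were picked by name for a large excess in these same arrays, with no stated threshold, so their differences are given as a description and carry no test. They are 10 of the 18194 genes that the arrays read with at least 1 probe set of a single gene symbol, and 12 of 34958 such probe sets. All 10 passed the filter on low values described below.

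RNA was measured on Affymetrix mouse arrays after translating ribosome affinity purification (TRAP), a method that tags the ribosomes of a chosen cell type and pulls them out of a tissue lysate with the mRNA they carry. The IP group held 3 samples of this immunoprecipitated RNA and the unbound group 3 samples of the RNA left over after the pull-down, the reading for all cells of the dissected tissue. Every sample of both groups pooled 5 adult mice, males and females aged 6 to 12 weeks, of the bacterial artificial chromosome transgenic line Slc6a4 JD60 on a mixed FVB and c57/bl6j background. The tissue was midbrain and brainstem without cerebellum. The line is a single transgenic line in which the regulatory region of Slc6a4, the serotonin transporter gene, marks the cells, so the IP RNA is enriched for that of cells in which this transgene is active. In pooled tissue, fewer cells of a type and less RNA per cell cannot be told apart, and the groups are unlike in ribosome binding as well as in cells.

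Serotonin neurons sit in the raphe nuclei of the brainstem, make serotonin from tryptophan with the enzymes encoded by Tph2 and Ddc, and project throughout the brain and spinal cord. Their identity is set by transcription factors among which Gata2, Gata3, Lmx1b and Fev are well known. Several of the 10 genes belong to families best known outside the brain: secreted protease inhibitors with a WAP domain, tissue kallikreins, lens crystallins and cathepsin-like inhibitors of lymphocytes. Stathmins, which bind tubulin, and cortexins are known from neurons, and the others are a transcriptional co-activator, 2 genes annotated as long noncoding RNAs and 1110008P14Rik, which has no descriptive name.

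On the deposited log2 scale, after a shift of -0.23 that set the IP arrays level with the unbound arrays over 18 biotin hybridisation controls, Slc6a4 averaged 14.20 ± 0.12 over the 3 IP arrays and 9.05 ± 0.07 over the 3 unbound arrays (mean ± SD throughout), and Tph2, for tryptophan hydroxylase, averaged 15.16 ± 0.14 in IP and 9.35 ± 0.17 in unbound RNA. Gfap, an astrocyte gene, averaged 6.17 ± 0.02 in IP and 10.66 ± 0.12 in unbound RNA. All 12 measured genes of the serotonin neuron list were higher in IP, and the lists of astrocytes (10 of 10 tested genes lower), oligodendrocytes (9 of 9), microglia and macrophages (5 of 6), endothelial and mural cells (6 of 6), dopamine and noradrenaline neurons (6 of 6) and other neurons (6 of 6) were lower. In the list of ependymal and choroid plexus cells 4 of 5 tested genes were lower, with a median log2 difference of -4.91 over the 5. Aif1 of microglia was higher, with 5.73 in IP and 4.71 in unbound RNA, and Dynlrb2 of ependymal cells was higher, with 8.70 in IP and 7.64 in unbound RNA. Single arrays decided both calls, as the difference of Aif1 was 0.99 without unbound replicate 2 and that of Dynlrb2 was 0.92 without it and 0.99 without unbound replicate 3, and Aif1 was not called without IP replicate 3 either. Abundant transcripts of other cells were still read in IP, such as Mbp of oligodendrocytes, with 13.63 in IP and 15.30 in unbound RNA, and Ttr of the choroid plexus, with 13.79 in IP and 15.52 in unbound RNA. A log2 value of 5 is called the detection limit here. The test took in genes that reached it on at least 3 of the 6 arrays, and a gene was called where limma's adjusted p was under 0.05 and the difference at least 2-fold. Of 10582 tested genes, 1104 (10.4%) were called higher and 4354 (41.1%) lower, 51.6% in all.

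The authors normalised each group by itself, so the level of IP against unbound rests on the scaling chosen here. With no scaling between groups 1500 genes were higher and 3746 lower, under quantile normalisation 2514 and 2473, with arrays centred on the median of expressed probe sets 2737 and 2586, with arrays centred on the median of all probe sets 3563 and 2067, and with scaling to the poly-A spike controls 35 and 9993. The median log2 difference of the tested genes was -0.65 under the biotin scaling and -0.41, 0.04, 0.14, 0.44 and -3.37 under these others in the same order. A shift of whole arrays moves the 10 genes and all other genes alike, so it changes their differences but not their place among genes.

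The sequences just before the annotated starts of 5 of the genes are shown as examples. In 4 of them these bases hold a motif match, and 1700042O10Rik lies within a gene of serotonin synthesis. Each run is the 250 bases before the start, from RefSeq on build GRCm38.p6, in lower case with matches to AGATAA (the GATA factor motif), CCGGAA (an ETS factor motif) or TATAAA (the TATA box), on either strand, in capitals.
1700042O10Rik, chr11:11867873-11868122, plus strand: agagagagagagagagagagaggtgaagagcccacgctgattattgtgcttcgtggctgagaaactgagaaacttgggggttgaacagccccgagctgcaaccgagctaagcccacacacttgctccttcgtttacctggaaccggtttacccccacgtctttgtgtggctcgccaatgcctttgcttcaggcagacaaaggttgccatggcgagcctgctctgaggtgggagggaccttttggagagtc
Cited1, chrX:102252182-102252431, minus strand: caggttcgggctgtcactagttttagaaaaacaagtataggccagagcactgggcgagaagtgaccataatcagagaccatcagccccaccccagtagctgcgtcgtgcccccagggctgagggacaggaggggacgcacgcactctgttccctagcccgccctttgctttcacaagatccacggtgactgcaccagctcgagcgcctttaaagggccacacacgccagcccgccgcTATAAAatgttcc
Klk1b27, chr7:44052040-44052289, plus strand: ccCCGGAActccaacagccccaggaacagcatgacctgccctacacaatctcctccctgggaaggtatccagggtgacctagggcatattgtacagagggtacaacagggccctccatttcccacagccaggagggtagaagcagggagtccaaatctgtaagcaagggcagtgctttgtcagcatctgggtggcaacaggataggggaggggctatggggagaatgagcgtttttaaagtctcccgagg
Ctla2a, chr13:60936626-60936875, minus strand: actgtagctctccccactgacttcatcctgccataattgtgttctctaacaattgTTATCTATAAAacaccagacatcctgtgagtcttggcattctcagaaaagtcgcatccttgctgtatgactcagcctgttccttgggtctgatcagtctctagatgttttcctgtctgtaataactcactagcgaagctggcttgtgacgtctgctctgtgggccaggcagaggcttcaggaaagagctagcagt
1110038B12Rik, chr17:34952472-34952721, minus strand: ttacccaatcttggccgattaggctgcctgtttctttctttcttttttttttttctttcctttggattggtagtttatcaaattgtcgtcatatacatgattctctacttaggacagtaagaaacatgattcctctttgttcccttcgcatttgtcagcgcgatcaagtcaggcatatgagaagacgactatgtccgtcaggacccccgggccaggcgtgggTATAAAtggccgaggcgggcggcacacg

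All 10 genes had a promoter window in the RefSeq table, 14 windows in all because Cited1 had 3 and Ctla2a and 1110038B12Rik had 2 each. Over windows running 250 bases before to 50 after the start, TATAAA was found in 7 of the 14 windows, those of Cited1, Cryba2, Ctla2a and 1110038B12Rik, against 13.6% of 32851 windows of all genes. Windows of the same gene overlap in Ctla2a and 1110038B12Rik, so the 7 windows stand for 4 genes. In the first window of 1110038B12Rik the match began 28 bases before the start, in that of Cited1 13 bases before it and in that of Ctla2a 190 bases before it. In the window of Cryba2 it began 3 bases before the start and ran across it. The second windows of these genes had it at 31 (1110038B12Rik), 115 (Cited1) and 249 (Ctla2a) bases. The count is thus of letters at unlike places and not of working TATA boxes. The letters AGATAA or their complement TTATCT were in 1 window, that of Ctla2a (11.2% of all windows), where TTATCT shares its last base with the TATAAA that follows it. CCGGAA or TTCCGG was in the windows of Klk1b27, 248 bases before the start, and, after its start, 1110008P14Rik (14.9% of all windows). The 250 bases shown for 1700042O10Rik hold none of the 3 motifs, which says only that these letters are not there.

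Wfdc12 encodes a small secreted protein with a WAP domain, a fold shared by several inhibitors of serine proteases. It read 9.91, 9.91 and 9.95 on the IP arrays and 2.28, 2.47 and 2.28 on the unbound arrays. All 3 IP arrays were far above the detection limit and all 3 unbound arrays close to the floor of the scale, which is 2.17 in unbound RNA and 1.98 in scaled IP RNA. Its excess in IP was at least 30.4-fold, a bound that counts each unbound array at no less than the limit of 5.

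Cited1 encodes a transcriptional co-activator that binds CBP and p300 and has no DNA-binding domain of its own. Its values were 9.73, 9.58 and 9.73 in IP and 2.62, 2.62 and 2.53 in unbound RNA. The groups were separated by 6.96 between the lowest IP and the highest unbound array, and the bound was at least 25.6-fold. Stmnd1, a gene named for a stathmin domain, read 9.24, 9.06 and 9.36 in IP and 3.04, 2.92 and 2.82 in unbound RNA. It was at least 18.6-fold higher in IP, again with every unbound array below the limit.

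Klk1b27 encodes a glandular kallikrein, a secreted serine protease of a large mouse gene cluster. It read 8.90, 9.20 and 9.14 in IP and 2.17 on every unbound array, the floor of that group, which gives a bound of at least 16.9-fold. Cryba2 encodes a beta crystallin, a structural protein of the lens. It read 8.89 on all 3 IP arrays and 2.5, 2.53 and 2.53 in unbound RNA, a bound of at least 14.8-fold. Equal values on all arrays of a group recur in the deposited values, which the authors normalised within each group, and their source was not tested. The spread of 0 among the IP arrays of Cryba2 therefore cannot be read as a measure of biological error.

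1700042O10Rik, annotated as a long noncoding RNA, read 10.10, 9.36 and 9.31 in IP and 2.35, 2.24 and 2.24 in unbound RNA. IP replicate 1 stood 0.77 above the mean of the other two, and all IP arrays stayed at least 6.96 above every unbound array. The bound was at least 24.1-fold.

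The other 4 genes were measured above the limit in both fractions, so their folds are not bounds. Ctxn1 encodes cortexin 1, a small membrane protein of neurons. Its values were 10.85, 10.87 and 10.73 in IP and 5.49, 5.56 and 6.20 in unbound RNA, a 33.6-fold difference. Unbound replicate 3 was the highest of its group by 0.68 over the mean of the other two.

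Ctla2a encodes an inhibitor of cysteine proteases that resembles the propeptide of a cathepsin, and was first known from activated T lymphocytes. It read 12.28, 10.58 and 10.71 in IP and 6.54, 5.89 and 6.14 in unbound RNA, a 32.1-fold difference. IP replicate 1 was far above the others of its group. Without it the log2 difference was 4.46, against 5.00 with it.

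1110038B12Rik, annotated as a long noncoding RNA, read 10.09, 10.65 and 10.59 in IP and 7.32, 7.44 and 7.56 in unbound RNA, an 8.02-fold difference. 1110008P14Rik, a protein-coding gene with no descriptive name in the annotation used, read 11.97, 11.97 and 11.90 in IP and 9.54, 9.35 and 9.57 in unbound RNA, a 5.50-fold difference. In both genes every IP array lay above every unbound array, by 2.54 for 1110038B12Rik and 2.33 for 1110008P14Rik.

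**Figure D1:**
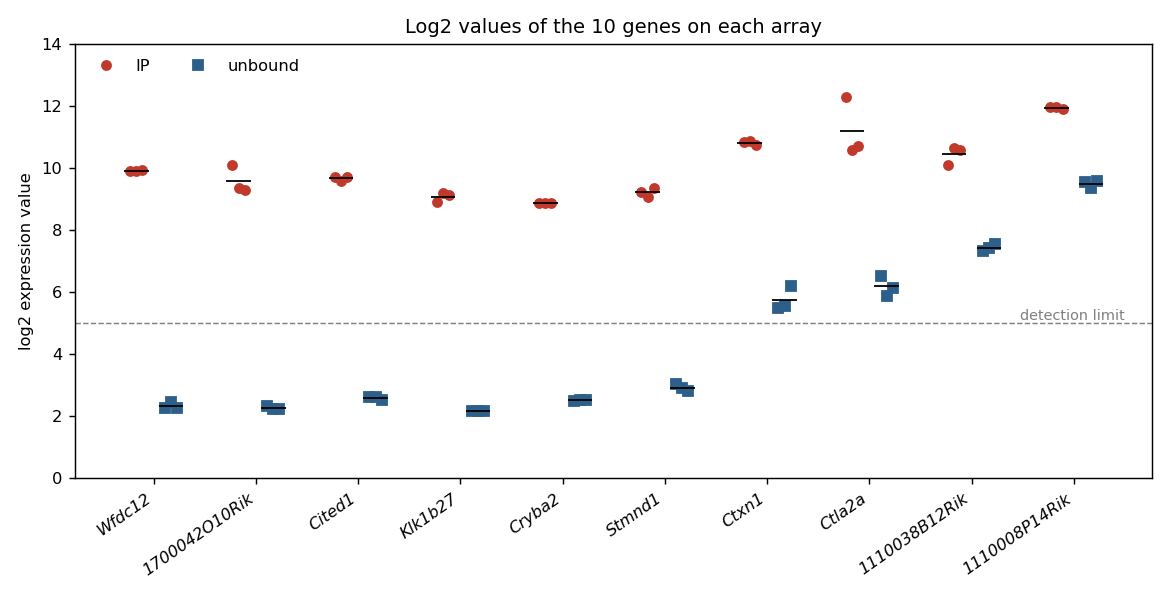
Log2 expression value (vertical axis) of the 10 genes on each array, IP as red circles to the left and unbound as blue squares to the right, with black bars for group means and a dashed line at the detection limit of 5. In 6 genes every unbound array lies below the limit, and in all 10 every IP array lies above every unbound array.

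Among the 4 genes measured in both fractions, the log2 difference ran between 2.46 (1110008P14Rik) and 5.07 (Ctxn1). The other 6 have bounds, between at least 14.8-fold (Cryba2) and at least 30.4-fold (Wfdc12). The median of the 10 computed differences, 6.33 beside -0.65 for all tested genes, takes these 6 against values below the limit and so is no measure of size. All 10 genes had IP arrays wholly above unbound arrays, where 23.9% of all tested genes did and 59.1% had the reverse, but the genes were chosen for that excess and the count says nothing further. The detection limit gives no order among the 6 genes that were dark in unbound RNA.

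Beside the scaling, single arrays mattered little for most of these genes. With each array left out in turn, Ctla2a ranged between 4.46 and 5.31, and 1700042O10Rik between 7.06 and 7.45. Ctxn1 ranged between 4.94 and 5.29, and the other 7 moved by less. Under the poly-A scaling, 1110038B12Rik had a log2 difference of 0.33 and 1110008P14Rik one of -0.22, while the others lay between 2.33 and 4.90. The other 4 scalings left all 10 differences at 2.69 or more.

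**Figure D2:**
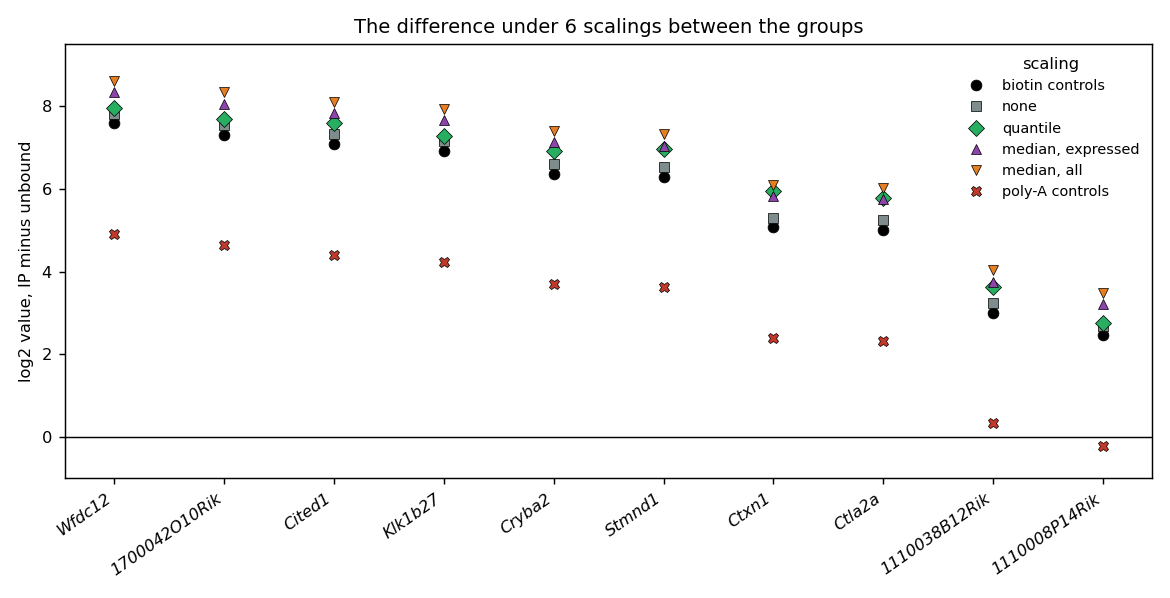
Log2 difference, IP minus unbound (vertical axis), of the 10 genes under 6 scalings between the separately normalised groups, each a marker of its own. Most of the scalings shift all genes alike, and under the poly-A scaling 1110038B12Rik lies at 0.33 and 1110008P14Rik at -0.22.

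Only 1110008P14Rik had more than 1 probe set of its own, and Ctla2a shared a second one. The 3 probe sets of 1110008P14Rik did not read alike. The brightest gave the values above. The second read 7.11, 7.11 and 6.99 in IP and 3.59, 2.56 and 3.58 in unbound RNA, at least 4.19-fold higher. The third read 4.88, 4.88 and 4.84 in IP and 5.57, 4.95 and 4.84 in unbound RNA, around the detection limit in both groups, with overlapping groups and a log2 difference of -0.25. The second thus showed an excess, as the brightest did, and the third showed none.

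Ctla2a has a close relative, Ctla2b, that lies near it on chromosome 13, and 1 probe set names both. That shared set read 11.25, 8.94 and 8.96 in IP and 5.64, 4.83 and 5.19 in unbound RNA. A probe set of Ctla2b alone read 6.46, 5.18 and 4.43 in IP and 4.38, 4.1 and 4.75 in unbound RNA, with overlapping groups, and Ctla2b was not tested because fewer than 3 arrays reached the limit. In all 3 sets IP replicate 1 was the highest array. Signal from the 2 genes may not be fully separable on the array.

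The excess of Ctla2a in IP replicate 1 was 1.64 over the mean of the other two IP arrays, and 9 of 10582 tested genes, Ctla2a included, had an excess that large. The median IP SD of tested genes was 0.11 and that of Ctla2a was 0.95. The summed level of the endothelial and mural markers was 7.57 in IP replicate 1 against 7.80 and 7.75 in replicates 2 and 3, and that of the microglia and macrophage markers 7.64 against 7.65 and 7.66. On all IP arrays 9 of the 11 endothelial and mural markers and 7 of the 10 microglia and macrophage markers lay below the limit. These 2 sums therefore rest on few genes and say little of either cell type. The astrocyte sum was 11.86 against 11.66 and 11.63, and that of the ependymal and choroid plexus markers 14.13 against 13.63 and 13.75. The latter sum is nearly all Ttr, with 14.10, 13.58 and 13.70. The oligodendrocyte sum was 14.05 against 14.61 and 14.51. The sum of GABA, glycine and glutamate neurons was 12.25 against 11.88 and 11.73, and that of dopamine and noradrenaline neurons 9.64 against 9.63 and 9.38. Serotonin neuron markers also summed highest in IP replicate 1, with 17.3 against 17.09 and 17.12. The part of other cells in the Ctla2a value of IP replicate 1 was not tested.

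**Figure D3:**
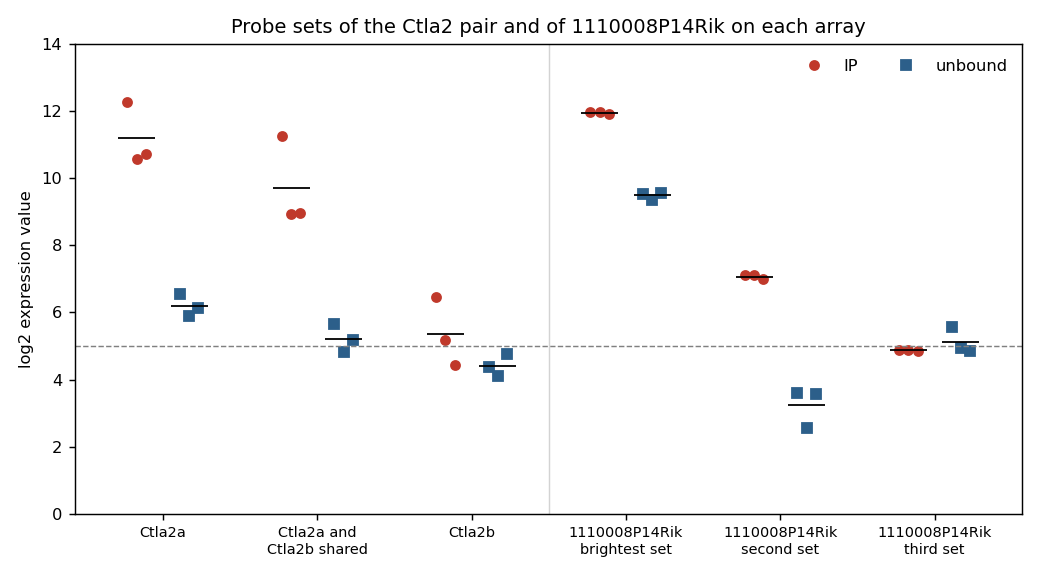
Log2 value on each array of the probe sets of Ctla2a and Ctla2b (left of the grey line) and of the 3 probe sets of 1110008P14Rik (right of it), IP as red circles and unbound as blue squares, with bars for means and a dashed line at the detection limit. IP replicate 1 is highest in all 3 sets of the Ctla2 pair, and the third set of 1110008P14Rik reads 4.87 in IP and 5.12 in unbound RNA on average.

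Relatives of the genes were chosen by name, as bearers of the same family name, binding partners or host genes of the same kind. Their calls come from the fit over all genes. Of 126 listed relatives 102 were on the array and 48 were tested. Of these 14 (29.2%) were higher in IP and 22 (45.8%) lower, beside 10.4% and 41.1% of all tested genes. Of the 14, 9 were small nucleolar RNA host genes, of which 17 were tested. The others were 3 cathepsins or cystatins, 1 WAP gene and 1 cortexin. The split moved with the scaling: 16 higher and 19 lower with no scaling, 16 and 17 under quantile normalisation, 20 and 18 with the median of expressed probe sets, 24 and 15 with the median of all probe sets, and 0 and 38 under the poly-A scaling. The median log2 difference of tested relatives was -0.09, and that of all tested genes -0.65.

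Most of the WAP, kallikrein and crystallin families were dark in both fractions. Of the WAP four-disulfide core list, 14 of 16 genes lay below the limit on every array. Slpi, a secretory inhibitor of leukocyte proteases, rose to 6.15 in IP, against 4.56 in unbound RNA, at least 2.23-fold (limma, adjusted p = 3.93e-05). Its IP arrays read alike, as those of Cryba2 did, so this p leans on a spread that cannot be read as biological error. The same limit applies below to Klk1, Tfap2a, Tfap2b, Ctxn3, Ctsh and Hdac8. The IP arrays of Ctsk, Cryl1 and Snhg4 were nearly equal too, with an SD of 0.01 in each gene. Slpi was not tested under the poly-A scaling, and no gene of this list was tested with the stricter filter at 7. Wfdc18 fell to 3.14 in IP, against 6.89 in unbound RNA, at least 3.70-fold (limma, adjusted p = 6.44e-07). Of 18 kallikrein genes other than Klk1b27, 16 were below the limit on all arrays. They include all 7 measured Klk1b genes of the same cluster, whose highest value on any array was 4.02, a Klk1b21 reading in IP.

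Klk6, a kallikrein known from oligodendrocytes, fell by 3.69 on the log2 scale (limma, adjusted p = 0.000303). Klk1, the tissue kallikrein that releases kinins, fell by 1.10 (limma, adjusted p = 6.06e-05) by 1 probe set, while its other 3 read below the limit everywhere. Under no scaling, quantile normalisation and both median scalings Klk1 was no longer called, and it was not tested with the mean of its probe sets. All 12 measured beta and gamma crystallin genes other than Cryba2 were below the limit on every array. The 3 tested genes of the crystallin list bear the crystallin name but belong to neither the beta nor the gamma family, so their falls are not those of close kin of Cryba2. Cryab, a small heat-shock protein, fell by 2.65 (limma, adjusted p = 2.73e-06) and Cryz, a quinone oxidoreductase, by 1.17 (limma, adjusted p = 0.000792), a call lost under the same 4 scalings and with the mean of a gene's probe sets. Cryl1 fell at least 24-fold by its brightest probe set (limma, adjusted p = 0.000235), at least 15.3-fold without unbound replicate 2, and its other 3 sets differed by between -0.52 and -1.84. Crym, with 4.86 in IP and 2.57 in unbound RNA, was just under the limit, and it passed the filter and was called higher under the 4 scalings that raise IP values.

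No tested gene of the list of CITED genes and their binding partners was higher in IP. Of all tested genes, 10.4% were higher and 41.1% lower under the biotin scaling. All 6 tested genes of the list fell under the biotin scaling, no scaling, quantile normalisation and the poly-A scaling. Beside them, 4354 of 10582, 3746 of 10641, 2473 of 10529 and 9993 of 10294 tested genes fell, in the same order. Nearly all genes fell under the poly-A scaling, so the count there says nothing of the list. With the median of expressed probe sets 5 fell, beside 2586 of 10573 genes. With that of all probe sets 4 fell, beside 2067 of 10548 genes. Tfap2b fell at least 11.5-fold (limma, adjusted p = 3.62e-07), Ep300, which encodes p300, by 2.78 (limma, adjusted p = 6.47e-05) and Tfap2a by 2.75 (limma, adjusted p = 4.06e-06). Cited2, the other CITED gene above the limit, fell by 1.5 to 9.49 in IP, against 10.99 in unbound RNA (limma, adjusted p = 0.000389), a call lost with both median scalings and with the mean of its probe sets. Cited2 and the genes after it in this and the next paragraphs that are not among the 3 largest changes of their list were named after their values were seen.

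Among the stathmins, which regulate microtubule dynamics in neurons, none was higher by its brightest probe set, and 1 was with the mean of a gene's probe sets. Stmn4 fell by 1.11 (limma, adjusted p = 0.000136), a call lost under every other scaling except the poly-A one. Stmn1, Stmn2 and Stmn3 had differences of 0.38, 0.61 and 0.12, abundant in both fractions, and were not called, though 3 of the 4 were higher with the median of all probe sets, 2 with that of expressed ones and all 4 lower under the poly-A scaling. Second probe sets of Stmn1 and Stmn2 differed by 1.19 and 2.13. The cortexin genes split. Ctxn2 rose by 1.89, with 14.46 in IP and 12.57 in unbound RNA (limma, adjusted p = 2.60e-05), and turned to -0.79 under the poly-A scaling. Ctxn3 fell at least 6.20-fold, with all IP arrays below the limit (limma, adjusted p = 4.35e-06).

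Of 12 tested cathepsins and cystatins, 3 (25%) rose and 5 (41.7%) fell, beside 10.4% and 41.1% of all tested genes. Under the poly-A scaling 0 rose and 10 fell, beside 35 and 9993 of 10294 genes. With the median of all probe sets 7 rose and 4 fell, beside 3563 and 2067 of 10548 genes. Ctsl, which encodes cathepsin L, the protease that mouse CTLA-2 alpha inhibits, rose by 2.01, with 13.02 in IP and 11.01 in unbound RNA (limma, adjusted p = 4.90e-05), a call lost at 0.86 with the mean of its probe sets, of which the second read below the limit. Ctsz rose by 1.34 and the cystatin gene Cst6 by 1.82. Ctsc, Ctsk and Ctsh fell at least 8.33-fold, 4.48-fold and 1.49-fold (limma, adjusted p = 1.23e-06, 3.62e-07 and 2.71e-06), with IP arrays below the limit.

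The small nucleolar RNA host genes carry in their introns small RNAs, many but not all of which guide chemical changes on ribosomal RNA. RefSeq places Snord52 and a second small nucleolar RNA gene inside 1110038B12Rik. Of 17 tested host genes other than it, 9 (52.9%) rose and 3 (17.6%) fell, beside 10.4% and 41.1% of all tested genes. The host genes had a median of 1.07. Between 8 and 11 of 16 or 17 tested host genes rose under 4 of the other scalings. The share of all tested genes that rose ran there from 14.1% with no scaling to 33.8% with the median of all probe sets. Under the poly-A scaling 0 of 16 rose and 11 fell, beside 35 and 9993 of 10294 genes. Zfas1 rose by 3.49 (limma, adjusted p = 2.60e-06) and Snhg4 by 3.23 (limma, adjusted p = 2.39e-06), close to the 3.00 of 1110038B12Rik. Snhg14 fell by 4.09 (limma, adjusted p = 8.96e-05) and Snhg11 by 3.40 (limma, adjusted p = 8.44e-05). The 4 probe sets of Gas5 disagreed, with differences of 0.95 and 1.85 for the bright ones and -2.72 and -4.28 for the dim ones.

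**Figure D4:**
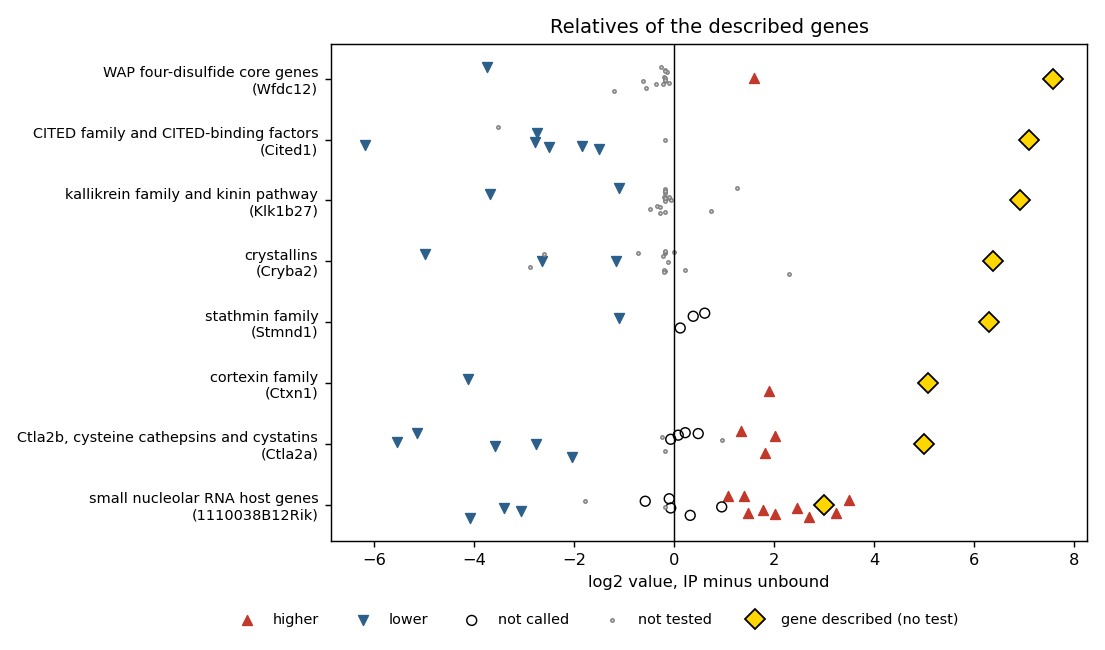
Log2 difference, IP minus unbound (horizontal axis), of the relatives of 8 of the genes by list, with red triangles for genes called higher, blue triangles for genes called lower, open circles for tested genes not called, small grey points for genes not tested and a gold diamond for the gene the list belongs to. The diamond lies right of every relative in 7 lists, and among the small nucleolar RNA host genes 1110038B12Rik (3.00) lies among the 9 that rose. The diamond genes were chosen for their excess and the relatives by name, so this order follows from the choice. The diamonds of Wfdc12, Cited1, Klk1b27, Cryba2 and Stmnd1 are taken against unbound values below the limit.

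The genes that flank these 10 were taken as all RefSeq genes within 50 kb, a rule chosen after values had been seen. There were 64 such genes, of which 36 were on the array and 18 tested, and 17 of the 36 were below the limit on all arrays. Of the 18 tested, 3 (16.7%) were higher and 8 (44.4%) lower, beside 10.4% and 41.1% of all tested genes, with a median log2 difference of -0.22. With the median of all probe sets 9 neighbours were higher and 3 lower, and scaling to the poly-A controls gave 1 and 17.

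1700042O10Rik lies inside the span of Ddc, on the opposite strand. Ddc encodes the decarboxylase that makes serotonin from 5-hydroxytryptophan. Ddc read 15.36, 15.24 and 15.29 in IP and 10.73, 11.43 and 11.30 in unbound RNA, a rise of 4.14 (limma, adjusted p = 5.75e-06) that held under all 5 other scalings, the lowest being 1.46 under the poly-A one. A second probe set of Ddc read 6.04, 6.04 and 6.16 in IP and 2.17 on every unbound array. Which strand the probes of 1700042O10Rik read cannot be told from the files, so its signal and that of Ddc cannot be told apart here. Grb10, on the other side, was not called at 0.43 (limma, adjusted p = 0.149).

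Cryba2 lies between Fev, which encodes a defining transcription factor of serotonin neurons, and the microRNA gene Mir375. Neither was analysed here. On the far side of Fev, Cdk5r2, an activator subunit of the kinase CDK5, rose by 1.17 (limma, adjusted p = 0.00243), and was lower at -1.5 under the poly-A scaling and not tested with the mean of its probe sets. Cfap65 and Ihh, on the Mir375 side, stayed below the limit on all arrays. Prr36, close to Ctxn1, rose by 1.13 (limma, adjusted p = 0.00039) and was at -1.55 under the poly-A scaling, while Timm44, next to Ctxn1, fell by 1.85 (limma, adjusted p = 0.00187), a call lost with the median of all probe sets and with the mean of its probe sets, and Elavl1 by 2.23 (limma, adjusted p = 2.92e-06).

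Around the other genes only part of the neighbours was on the array. Wfdc12 lies in a run of related genes in which Wfdc5, Wfdc15a and Wfdc15b read at most 3.04 on any array, and inside the span of a long noncoding RNA, A730032A03Rik, on the opposite strand. Klk1b27 lies inside the annotated span of Klk1b21, on the same strand, which read 4.02, 3.93 and 3.93 in IP and 3.34, 3.18 and 3.18 in unbound RNA. Hdac8, the measured gene beside Cited1, fell at least 1.40-fold, with IP arrays near the floor (limma, adjusted p = 4.17e-07), and was not tested under quantile normalisation. The heat-shock genes Hspa1a and Hspa1b beside 1110038B12Rik were lower, with log2 differences of -1.54 (limma, adjusted p = 4.72e-05) and -2.07 (limma, adjusted p = 3.94e-05). Hspa1a was no longer called with both median scalings and under quantile normalisation. Beside Ctla2a, Tpbpa and Tpbpb read below the limit on all arrays. Beside 1110008P14Rik, Dnm1 fell by 1.30 (limma, adjusted p = 6.46e-05), a call lost with both median scalings, and Ciz1, Ptges2 and Slc25a25 were not called. No RefSeq gene lay within the window around Stmnd1.

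**Figure D5:**
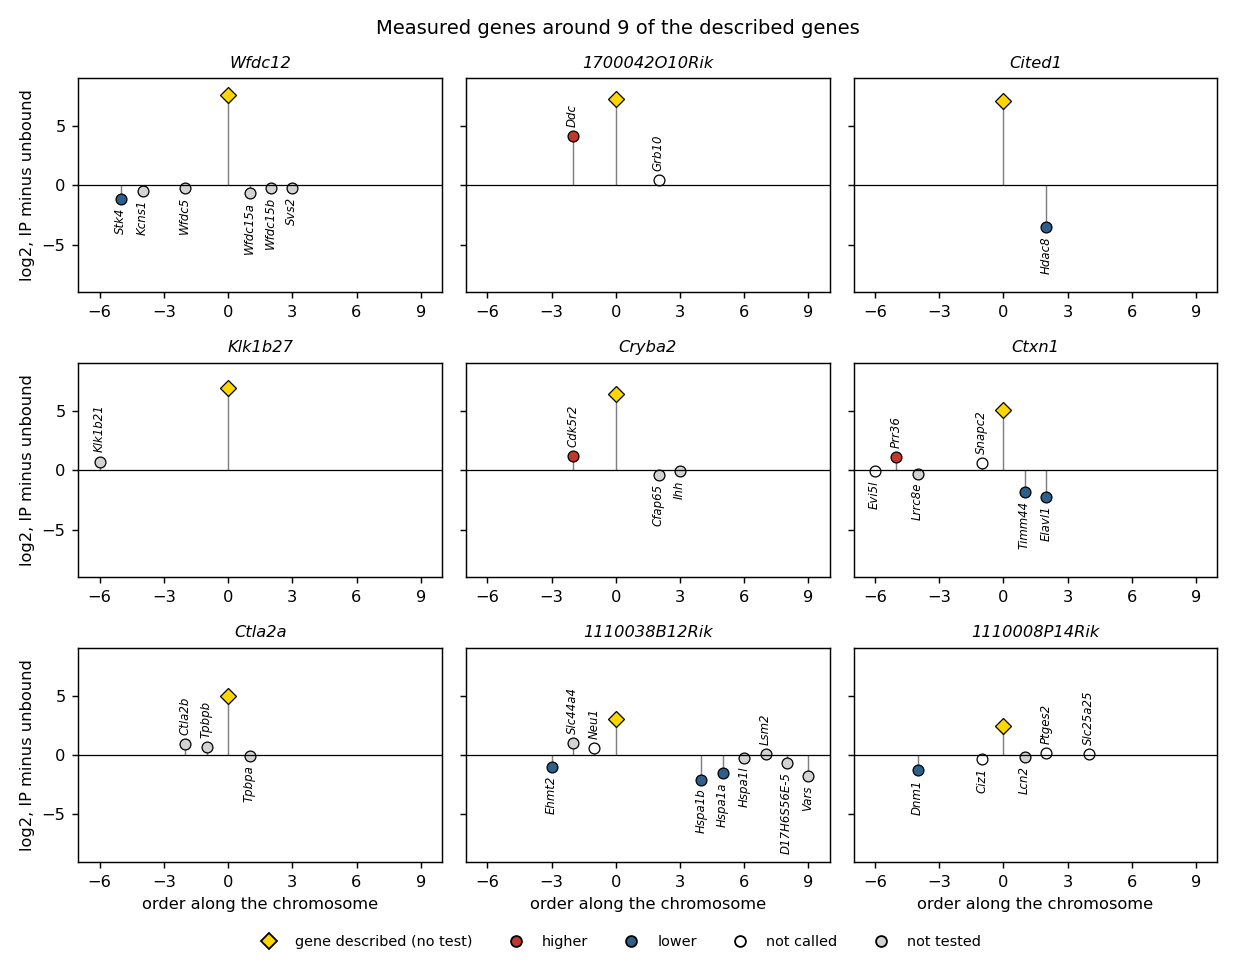
Log2 difference, IP minus unbound (vertical axis), of the measured genes within 50 kb of 9 of the genes in their order along the chromosome (horizontal axis, 0 for the gene itself, gold diamond), with red for genes called higher, blue for lower, white for not called and grey for not tested. Ddc, at 4.14, is the neighbour with the largest rise.

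Genes with the most similar values were found by Euclidean distance over the 6 arrays, 2 for each of the 10 genes. Such a distance over 2 groups of 3 arrays mostly follows the pair of group levels. Of the 20 genes so named, repeats included, 12 were among the 10, 7 different ones, which had been picked for these same values. Wfdc12 and Cited1 were nearest to each other at 0.63, and Klk1b27 and Cryba2 at 0.73. Gata2, which encodes a transcription factor of serotonin neurons, was nearest to Ctxn1 at 0.79, with 10.62 ± 0.11 in IP and 5.93 ± 0.11 in unbound RNA (n = 3 arrays a group, SD). Tmem114 was nearest to Stmnd1 at 0.64, Ceacam10 second to Cryba2 at 0.90, Pcsk5 and Lhfpl5 nearest to 1110038B12Rik at 0.42 and 0.61, and Nsrp1 and Ube2a nearest to 1110008P14Rik at 0.49 and 0.60.

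How well a gene is studied was not measured, and a RIKEN clone name served as a rough stand-in for little study. Such a name is carried by 1291 other genes. Of these 252 were tested, 41 (16.3%) were higher and 101 (40.1%) lower, beside 10.4% and 41.1% of all tested genes, with a median log2 difference of -0.42. The share of higher genes was above that of all genes under the 5 other scalings too, 22.3% against 14.1% with no scaling and 0.429%, which is 1 gene of 233, against 0.340% under the poly-A scaling. It was below it without a filter on low values, 4.73% against 6.94%. C030013G03Rik and A230051N06Rik, named after their values were seen as the largest rises, were at least 4.45-fold (limma, adjusted p = 5.69e-07) and 5.20-fold higher (limma, adjusted p = 4.54e-07).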

How the data were processed

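The deposited values are log2 expression values, 45101 probe sets on each of 6 arrays. Per the labels' protocols 20 ng of total RNA went through Affymetrix two-cycle amplification, and per the submitters' processing notes and the series text the authors used GCRMA on the replicates of each group separately. No GCRMA version was given in the sources used here, and the log2 scale was read from the values. Per the labels the 3 samples within each group were biological replicates. The number of arrays limits the precision.

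From these values, -0.23 was added to each IP value (mean difference of 18 biotin controls), following the series text. Genes were named from the platform annotation, and 932 probe sets with several symbols were left out of the fit. Where a gene had several probe sets, the one with the highest mean was used. A two-sided limma test (limma 3.58.1 in R 4.3.3) with group as the only term was adjusted by Benjamini-Hochberg across 10582 genes. Bounds count each array of the dim group at no less than 5. Summed marker levels are log2 of the sum of linear values.

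The genes, lists and tests were chosen with earlier results of these data known. Of each list of relatives, up to 3 called genes with the largest change were named, or the 2 brightest where none was called, and for each of the 10 genes its 2 nearest. Same-numbered IP and unbound samples share a replicate label, and their deviations from group means correlated at 0.268, 0.164 and 0.104 across genes, each above the bound of 0.1, so the numbers were taken to pair the samples. IP replicate 3 correlated more with unbound replicate 2 (0.208). The fit with that block is in the closing section. Alternatives were 5 other scalings, 2 other filters, the mean of a gene's probe sets and each array left out.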

Additional observations from a re-analysis of the deposited data

How the results depend on the processing

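The scaling between groups moved most values. The median difference of the 10 genes, 6.33 with 6 of them taken against values below the limit, was 6.57 with no scaling, 6.93 under quantile normalisation, 7.08 and 7.36 with the medians of expressed and of all probe sets, and 3.66 under the poly-A scaling. In the same order after no scaling, genes called higher numbered 2514, 2737, 3563 and 35, and genes called lower 2473, 2586, 2067 and 9993. Relatives called higher were 24 with the median of all probe sets and 0 under the poly-A scaling, where 38 were lower. Neighbours called higher and lower, a count chosen after seeing the data, were 7 and 4 under quantile normalisation, 6 and 4 and 9 and 3 with the medians of expressed and of all probe sets, and 1 and 17 under the poly-A scaling. With the mean of a gene's probe sets 5 neighbours were lower. Under the poly-A scaling 1110008P14Rik turned to -0.22 and Ctxn2 to -0.79. These changes came with a change of scaling, except the neighbour count with mean probe sets, where 16 neighbours were tested and not 18. Their causes were not tested. With the replicate block, which pairs same-numbered samples, 1108 genes were higher and 4360 lower, 14 relatives were higher and 22 lower, and no call of a named relative changed. Leaving out each array in turn gave 1090 to 1127 genes higher and 4247 to 4405 lower, 13 to 14 relatives higher, 3 neighbours higher and 6 to 8 lower, and a median of the 10 genes of 6.30 to 6.37. The signal over background limits 6 of the 10 genes to bounds.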
